A study of Homo sapiens with 33 samples.

Results

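Heme oxygenase, ferritin and iron transport genes were described across HT29 cells treated with 4 herbal extracts. The members were 7 named genes of the 60675 in the count table: HMOX1, BLVRB, FTL, FTH1, TFRC, SLC40A1 and SLC11A2. They were chosen by name for their roles in heme breakdown, iron storage and iron transport, with earlier results of these data known. All 7 passed the filter on low counts, as did 17432 genes in all.

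HT29 is a human colorectal adenocarcinoma line, and RNA was sequenced 24 h after treatment. The extracts were made with 70% ethanol from Sagunja-tang, Samul-tang, Palmul-tang, which combines the herbs of the first pair, and Sibjeondaebo-tang, which adds further herbs to Palmul-tang. Each was given at 20, 100 and 500 µg/mL, called low, medium and high. Vehicle was 0.1% DMSO in the sample labels, and no DMSO percentage was listed for the extract libraries. All sample titles, vehicle and extract, carry the label BatchE. There were 2 libraries per dose of Sagunja-tang and of Samul-tang (replicates 2 and 3), 3 per dose of Palmul-tang and of Sibjeondaebo-tang, and 3 of vehicle, 33 in all.

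Heme oxygenase opens the heme ring and releases iron, carbon monoxide and biliverdin, and biliverdin reductases then make bilirubin. Cells store iron inside ferritin shells built from heavy and light subunits, take up transferrin-bound iron through the transferrin receptor and let iron out through ferroportin. In the intestine export through ferroportin moves dietary iron towards the blood. Iron regulatory proteins bind a hairpin called the iron-responsive element in some of these messenger RNAs: in a 5′ untranslated region they block translation, and in the 3′ untranslated region of the transferrin receptor they protect the message. The transcription factor NRF2 is known to raise the genes of heme oxygenase 1 and both ferritin subunits, and the repressor BACH1 holds them down until heme binds it.

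Total counts, in units of 1e6, were 28.6 to 49.1 with extracts and 31.1 to 35.6 with vehicle. Mitochondrially encoded genes took 7.38 ± 0.742% of counts with extracts (SD, n = 30) and 9.99 ± 1.35% with vehicle (SD, n = 3). High-dose Sagunja-tang replicates 2 and 3 stood apart from each other, with a root mean square log2 difference over genes of 0.257, against 0.0946 to 0.171 in the 26 other replicate pairs. Sample codes of vehicle, of Sagunja-tang and Samul-tang, and of Palmul-tang and Sibjeondaebo-tang begin differently, and the labels do not say what this means, so extract and code set cannot be told apart in comparisons with vehicle or between extracts of different sets. All comparisons with vehicle share its 3 libraries. Nothing in the labels says that replicates were separate cultures, so the tests weigh each difference against the spread among these libraries alone, and that spread may be technical. Colon epithelial markers were present, with a summed level of 12500 to 15100 counts per 1e6 counts (CPM) with extracts and 13100 to 13500 CPM with vehicle. The keratin genes KRT8 and KRT18 had the highest medians of the 12, at 6490 and 3900 CPM. CDX2 had a median of 4.4 CPM, and CDX1, the 1 marker below 1 CPM, of 0.877 CPM. Markers of erythroid cells, which make heme in bulk, summed to 1.02 to 3.35 CPM with extracts and 1.81 to 2.07 CPM with vehicle, and 11 of 12 had a median below 1 CPM. Of 12 markers of macrophages, which recycle heme iron, 8 had a median below 1 CPM, CD163, MARCO, C1QA, C1QB and C1QC were at 0, and LYZ carried most of a sum of 1370 to 1830 CPM with extracts and 1380 to 1440 CPM with vehicle.

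The iron-responsive elements are shown because iron regulatory proteins bind them in messages of the ferritins, ferroportin and the transferrin receptor. They were found in the GENCODE 29 transcripts on hg38 as a 30-base window holding an unpaired C, a 5-pair stem and the loop CAGTGN, with G-U pairs allowed, and the capitals mark the loop. FTH1 (chr11:61967573-61967602, minus strand), FTL (chr19:48965335-48965364, plus strand) and SLC40A1 (chr2:189580660-189580689, minus strand) each held 1 in a 5′ untranslated region.

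FTH1: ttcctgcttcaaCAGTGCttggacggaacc
FTL: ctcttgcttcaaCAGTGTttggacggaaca
SLC40A1: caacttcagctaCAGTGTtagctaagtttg

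TFRC held 4 of this exact form in its 3′ untranslated region, on the minus strand of chromosome 3, and an element of another form would have been missed. These 4 hairpins had their unpaired C 944, 1348, 1413 and 1460 bases after the end of the coding sequence, with the stop codon counted among these bases. In that order they lie at chr3:196050978-196051007, chr3:196050574-196050603, chr3:196050509-196050538 and chr3:196050462-196050491.

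TFRC hairpin at 944: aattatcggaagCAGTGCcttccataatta
TFRC hairpin at 1348: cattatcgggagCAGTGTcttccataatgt
TFRC hairpin at 1413: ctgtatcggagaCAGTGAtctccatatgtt
TFRC hairpin at 1460: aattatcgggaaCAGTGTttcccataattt

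The same pattern was in a 5′ untranslated region of 37 of 19225 genes (0.192%) and in a 3′ untranslated region of 164 of 19844 (0.826%). HMOX1, BLVRB and SLC11A2 had no window of this exact form, which says only that these letters and pairs were not found.

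The 7 genes differed widely in level. Per kilobase of exon, FTL and FTH1 had medians over the 33 libraries of 2958 and 2312 CPM per kb, TFRC 86.0, SLC40A1 27.2, BLVRB 15.3, SLC11A2 5.76 and HMOX1 5.36 CPM per kb. Before division by length, the ferritin genes ranked above 99.9% of tested genes and HMOX1 above 50.72%. Together FTL and FTH1 took 0.643 to 0.995% of counts with extracts and 0.778 to 0.809% with vehicle. Below, CPM are after TMM scaling, and a gene is called changed where the adjusted p of edgeR's quasi-likelihood test was below 0.05.

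At the high dose against vehicle, HMOX1, BLVRB and TFRC rose with each of the 4 extracts. Of all tested genes 18.7% rose and 18.0% fell with Sagunja-tang, where 3 members rose and 1 fell. With Samul-tang 15.0% of genes rose and 12.5% fell, and 5 members rose and 0 fell. Palmul-tang raised 17.3% of genes and 4 members and lowered 14.8% and 1 member. Sibjeondaebo-tang raised 20.5% of genes and 5 members and lowered 19.1% and 0 members. The median log2 change of the 7 genes was 0.12, 0.24, 0.31 and 0.42 in that order of extracts, and that of all genes lay between -0.02 and 0.00. With calls this common across the genome, the direction and size of the members' changes say more than their count.

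At lower doses the picture against vehicle was different: FTH1 fell and TFRC rose with each extract at both doses. At the medium dose 1 member rose and 1 fell with Sagunja-tang, where 16.4% of all genes were called in either direction, and likewise for Palmul-tang (20.0%). Medium-dose Samul-tang raised 4 members and lowered 1 (20.1% of genes called), as did medium-dose Sibjeondaebo-tang (26.0%). At the low dose 2 members rose and 2 fell with Sagunja-tang (11.1% of genes rose and 10.7% fell), with Samul-tang (8.89% and 8.71%) and for Palmul-tang (10.6% and 9.74%). Low-dose Sibjeondaebo-tang raised 3 members and lowered 1 (11.1% of genes rose and 10.9% fell).

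High against low dose within an extract leaves vehicle out. HMOX1 and FTL rose and SLC40A1 fell with all 4 extracts in this comparison. With Sagunja-tang 2 members rose and 1 fell, where 3.33% of all genes rose and 3.86% fell. With Samul-tang 4 rose and 1 fell (4.10% and 3.43% of genes), and for Palmul-tang the counts were also 4 and 1 (7.66% and 6.75%). Sibjeondaebo-tang raised 5 members and lowered 1 (15.5% and 14.3% of genes). The members' median log2 change was 0.16, 0.25, 0.17 and 0.31, where the median of all genes was between -0.01 and 0.00.

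**Figure D1:**
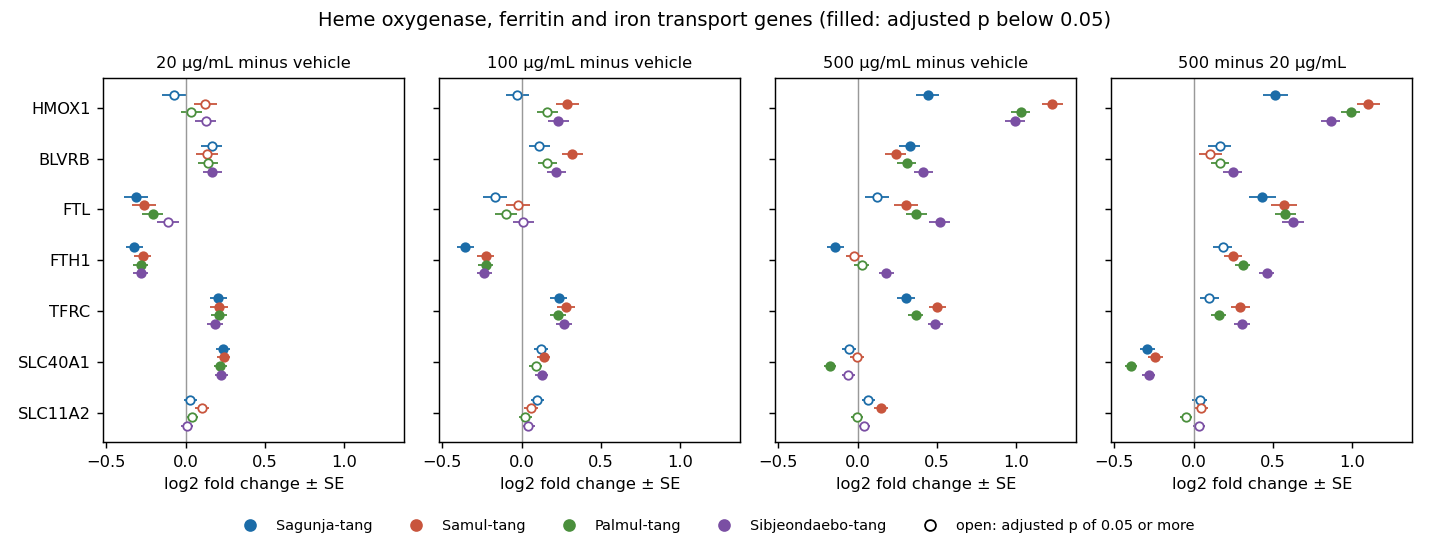
Log2 fold changes (x axes, ± SE) of the 7 genes for each extract at 20, 100 and 500 µg/mL against vehicle and at 500 against 20 µg/mL; filled points have an adjusted p below 0.05. HMOX1 lies farthest to the right at 500 µg/mL, at 0.44 to 1.23, FTH1 lies left of 0 at 20 and 100 µg/mL, and SLC40A1 lies left of 0, at -0.39 to -0.24, between 500 and 20 µg/mL.

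HMOX1 encodes heme oxygenase 1, the inducible enzyme of heme breakdown (ENSG00000100292, chromosome 22, 35380361 to 35394214). In vehicle it was at 10.8, 11.5 and 11.2 CPM. With Samul-tang it was at 12.9 and 11.6 CPM at the low dose, 12.95 and 14.4 CPM at the medium dose and 25.9 and 26.5 CPM at the high dose, so the high-dose libraries stood clear of all others. With Palmul-tang it was at 12.6, 10.6 and 11.3 CPM at the low dose, 13.01, 11.5 and 12.9 CPM at the medium dose and 22.4, 23.4 and 22.8 CPM at the high dose. With Sibjeondaebo-tang it was at 12.2, 12.2 and 12.3 CPM, then 13.6, 12.6 and 13.3 CPM, then 21.6, 22.1 and 23.1 CPM in the same order of doses. The low and medium doses of these extracts thus lay near vehicle. With Sagunja-tang the gene was at 10.7 and 10.6 CPM, then 10.8 and 11.2 CPM, then 14.0 and 16.3 CPM, the smallest high-dose level of the 4.

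In log2 terms HMOX1 rose against vehicle by 1.23 ± 0.07 with high-dose Samul-tang (adjusted p = 1.79e-13), 1.03 ± 0.06 for Palmul-tang (1.79e-12), 0.99 ± 0.06 with Sibjeondaebo-tang (3.91e-12) and 0.44 ± 0.07 with Sagunja-tang (3.34e-05). These are folds of 2.34, 2.04, 1.99 and 1.36. In bulk RNA, more expressing cells and more RNA per cell cannot be told apart. Since the high-dose Sagunja-tang replicates stand apart, the value was also taken with each alone: 0.55 ± 0.08 without replicate 2 and 0.33 ± 0.09 without replicate 3, both called. At the medium dose the rise was 0.29 ± 0.07 with Samul-tang, lost without its replicate 3 (0.21, adjusted p = 0.111), and 0.23 ± 0.07 with Sibjeondaebo-tang, lost once trends with gene length and GC content were removed (0.15, adjusted p = 0.147). At the low dose the log2 differences from vehicle lay between -0.07 and 0.13, and none was called by edgeR or DESeq2.

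High against low dose gave HMOX1 a rise of 1.10 ± 0.07 with Samul-tang (adjusted p = 1.49e-11), 0.99 ± 0.06 for Palmul-tang (3.41e-12), 0.86 ± 0.06 with Sibjeondaebo-tang (2e-11) and 0.52 ± 0.08 with Sagunja-tang (0.000161). Every high-dose library was above every low-dose library of its extract. For Sagunja-tang the rise was 0.61 ± 0.09 without high-dose replicate 2 and 0.39 ± 0.09 without replicate 3; a fit to its own 4 libraries alone, in which no gene at all was called, gave 0.51 with an adjusted p of 0.434. Over the 13 groups the order of mean levels ran from Samul-tang, Palmul-tang, Sibjeondaebo-tang and Sagunja-tang at the high dose (26.2 ± 0.453, 22.9 ± 0.491, 22.3 ± 0.728 and 15.2 ± 1.62 CPM, SD) to Sagunja-tang at the low dose (10.7 ± 0.099 CPM). The Palmul-tang and Sibjeondaebo-tang ranges overlapped, while Samul-tang lay above both and Sagunja-tang below; this order runs across code sets.

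BLVRB encodes biliverdin reductase B, a cytosolic reductase of biliverdin and flavins (ENSG00000090013, chromosome 19, 40447765 to 40465840). It was at 23.1, 22.5 and 22.2 CPM in vehicle, the lowest group of the 13, and between 23.7 and 29.1 CPM in the low-dose and medium-dose libraries. High-dose levels were 28.8 and 28.0 CPM with Sagunja-tang, 23.8 and 29.4 CPM with Samul-tang, 27.9, 26.7 and 29.4 CPM with Palmul-tang and 32.3, 29.9 and 28.2 CPM with Sibjeondaebo-tang. All these libraries exceeded all vehicle libraries, although the Samul-tang pair was far apart. The rise against vehicle was 0.33 ± 0.07, 0.24 ± 0.07, 0.31 ± 0.06 and 0.42 ± 0.06 in that order of extracts, with adjusted p of 0.000412, 0.0083, 0.000296 and 4.72e-06. That with Samul-tang rested on replicate 3, without which it was 0.07 (adjusted p = 0.537). That with Sagunja-tang was 0.31 ± 0.08 without replicate 2 and 0.35 ± 0.09 without replicate 3.

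BLVRB also rose at the medium dose with Samul-tang (0.32 ± 0.07) and Sibjeondaebo-tang (0.22 ± 0.06), the second lost once length and GC trends were removed (0.13, adjusted p = 0.117). At the low dose it rose with Sibjeondaebo-tang (0.17 ± 0.06, adjusted p = 0.0457), and leaving out any 1 vehicle library or low-dose replicate 2 or 3 ended that call, with values of 0.15 to 0.19, as did removing length and GC trends (0.11, adjusted p = 0.188). Dose moved BLVRB less than HMOX1: high against low was called only with Sibjeondaebo-tang (0.25 ± 0.06, adjusted p = 0.00194), and the remaining 3 extracts gave 0.10 to 0.17, of which Palmul-tang was called with the replicate block (adjusted p rounding to 0.05).

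**Figure D2:**
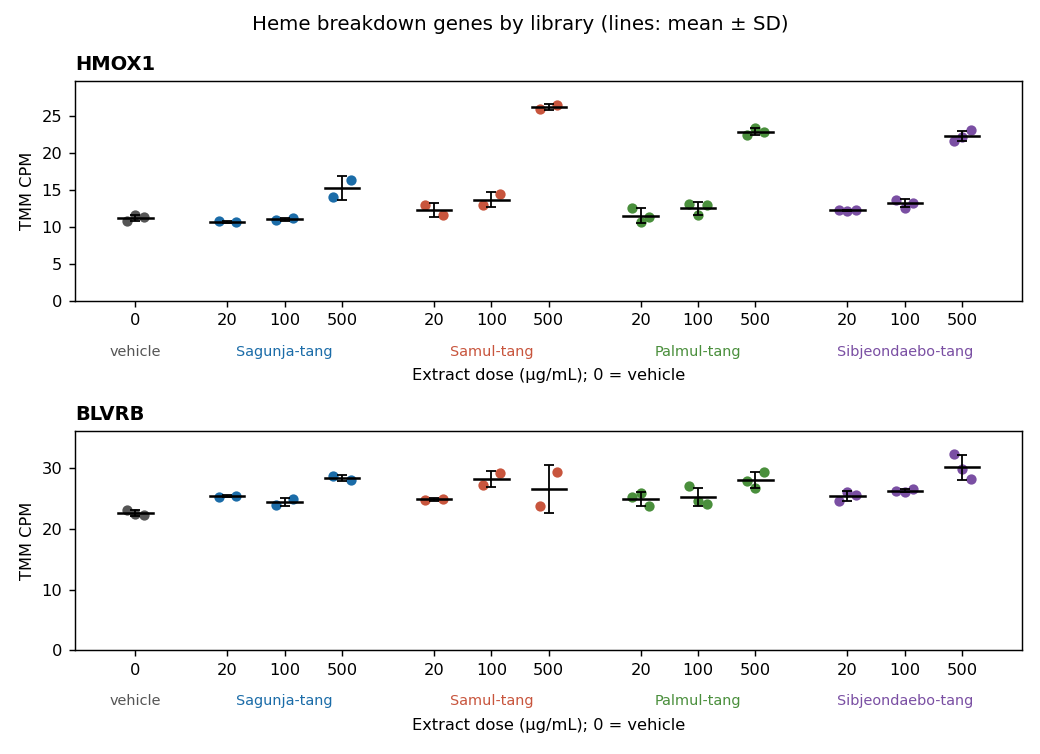
HMOX1 (upper) and BLVRB (lower) in TMM CPM (y axes, from 0) by dose of each extract in µg/mL, with vehicle at 0. Points are libraries and lines the mean ± SD. HMOX1 stays between 10.6 and 14.4 CPM in vehicle and at 20 and 100 µg/mL and reaches 14.0 to 26.5 CPM at 500 µg/mL, while BLVRB lies above vehicle throughout.

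FTL encodes the ferritin light chain, which favours the growth of the iron core (ENSG00000087086, chromosome 19, 48965301 to 48966878). In vehicle it was at 2610, 2600 and 2631 CPM. At the low dose it was at 1971 and 2243 CPM with Sagunja-tang, 2190 and 2167 CPM with Samul-tang, 2479, 2210 and 2100 CPM with Palmul-tang and 2402, 2551 and 2311 CPM with Sibjeondaebo-tang, each below every vehicle library. At the high dose it was at 2879 and 2812 CPM, 3164 and 3297 CPM, 3223, 3308 and 3609 CPM, and 4014, 3672 and 3541 CPM in the same order of extracts, each above every vehicle library. In these levels FTL thus lay on opposite sides of vehicle at the lowest and highest dose, but both differences were called only with Samul-tang and Palmul-tang. The medium-dose libraries, from 2161 to 2836 CPM, lay around vehicle, and none of the 4 medium-dose comparisons was called by edgeR or DESeq2. Without the filter on low counts edgeR called medium-dose Sagunja-tang lower (-0.16, adjusted p = 0.01).

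High against low dose, FTL rose by 0.43 ± 0.08 with Sagunja-tang (adjusted p = 0.00211), 0.57 ± 0.08 with Samul-tang (3.52e-05), 0.58 ± 0.07 for Palmul-tang (6.65e-07) and 0.63 ± 0.07 with Sibjeondaebo-tang (8.13e-08). The Sagunja-tang value was 0.41 ± 0.10 without high-dose replicate 2 and 0.45 ± 0.10 without replicate 3. It lost its call without low-dose replicate 2 (0.34, adjusted p = 0.081) and in the fit to its own 4 libraries (0.43, adjusted p = 0.458). Against vehicle the high dose raised FTL with Samul-tang (0.31 ± 0.08, adjusted p = 0.00327), Palmul-tang (0.37 ± 0.07, 0.000149) and Sibjeondaebo-tang (0.52 ± 0.07, 1.22e-06). Sagunja-tang gave 0.12 ± 0.08 (adjusted p = 0.222). Without replicate 2 or 3 of that group the value was 0.11 and 0.14, and edgeR called it without the filter on low counts (0.13, adjusted p = 0.034). Over all alternatives the value lay between -0.003 and 0.14, and no other alternative called it.

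Against vehicle the low dose lowered FTL with Sagunja-tang (-0.31 ± 0.08, adjusted p = 0.00493), Samul-tang (-0.26 ± 0.08, 0.0186) and Palmul-tang (-0.21 ± 0.07, 0.0305). Sibjeondaebo-tang gave -0.11 ± 0.07 and was called only with length and GC trends removed (-0.17, adjusted p = 0.0438). These low-dose calls were fragile. That of Sagunja-tang was lost without its replicate 2 (-0.21, adjusted p = 0.177). That of Samul-tang was lost without its replicate 2 or 3 or without vehicle replicate 3 (-0.26 to -0.25), and that of Palmul-tang without any 1 vehicle library or its own replicate 2 or 3 (-0.21 to -0.16).

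FTH1 encodes the ferritin heavy chain, the subunit with ferroxidase activity (ENSG00000167996, chromosome 11, 61959718 to 61967660). In vehicle it was at 5572, 5360 and 5658 CPM. At the low dose it was at 4251 and 4585 CPM with Sagunja-tang, 4527 and 4642 CPM with Samul-tang, 4509, 4538 and 4594 CPM with Palmul-tang and 4479, 4694 and 4480 CPM with Sibjeondaebo-tang. Every low-dose library was below every vehicle library. At the medium dose the levels were 4199 and 4438 CPM, 4536 and 4929 CPM, 4515, 4551 and 5105 CPM, and 4649, 4781 and 4673 CPM in the same order, again below vehicle. High-dose levels reached 5256 and 4770 CPM, 5202 and 5690 CPM, 5451, 5698 and 5751 CPM, and 6438, 6053 and 6305 CPM, so only the Sibjeondaebo-tang libraries all stood above vehicle.

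Against vehicle FTH1 fell at the low dose with each extract, with log2 changes between -0.32 and -0.27 and adjusted p between 0.000196 and 0.00138. It fell at the medium dose too, by 0.36 ± 0.05 with Sagunja-tang (adjusted p = 9.51e-05) and with changes between -0.23 and -0.22 for the others. Of these 8 falls 1 was lost without 1 library: medium-dose Samul-tang without its replicate 2 (-0.16, adjusted p = 0.171). FTH1 rose with high-dose Sibjeondaebo-tang (0.18 ± 0.05, adjusted p = 0.00336) and fell with high-dose Sagunja-tang (-0.14 ± 0.05, adjusted p = 0.038). The rise was lost once length and GC trends were removed (0.08, adjusted p = 0.202). The fall with Sagunja-tang was lost without its replicate 3 (-0.07, adjusted p = 0.41) and without vehicle replicate 1 (0.0746) or 3 (0.11), and stayed called without replicate 2 (-0.21 ± 0.06).

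High against low dose FTH1 rose by 0.25 ± 0.06 with Samul-tang (adjusted p = 0.00671), 0.31 ± 0.05 for Palmul-tang (3.94e-05) and 0.46 ± 0.05 with Sibjeondaebo-tang (3.46e-08). In Samul-tang that call was lost without high-dose replicate 3 (0.17, adjusted p = 0.188) or low-dose replicate 2 (0.115) or 3 (0.0516). Sagunja-tang gave 0.18 ± 0.06 (adjusted p = 0.0543), with 0.11 without high-dose replicate 2 and 0.25 without replicate 3, the second called at 0.00798. DESeq2 (0.0221) called it too, as did edgeR without the filter (0.013), with the replicate block (0.0308) and with mitochondrially encoded genes left out (0.0369). Rows of ferritin pseudogenes, whose sequences resemble the parent messages, held 0.156 to 0.224% of the joint counts of FTH1 and its 25 pseudogenes and 0.0765 to 0.151% of those of FTL and its 16, and how reads were split among them is uncertain.

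The light chain thus moved more with dose than the heavy chain. The ratio of FTL to FTH1 counts was 0.473 ± 0.011 in vehicle (SD, n = 3). It was 0.476 ± 0.018, 0.538 ± 0.033 and 0.569 ± 0.03 at the low, medium and high dose of Sagunja-tang and 0.475 ± 0.012, 0.544 ± 0.024 and 0.594 ± 0.02 for Samul-tang (SD, n = 2). For Palmul-tang it was 0.498 ± 0.047, 0.517 ± 0.012 and 0.6 ± 0.025, and for Sibjeondaebo-tang 0.532 ± 0.014, 0.56 ± 0.039 and 0.597 ± 0.032 (SD, n = 3). Every high-dose library, from 0.548 to 0.628, was above every vehicle library, from 0.465 to 0.485. The ratio is a description and was not tested.

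**Figure D3:**
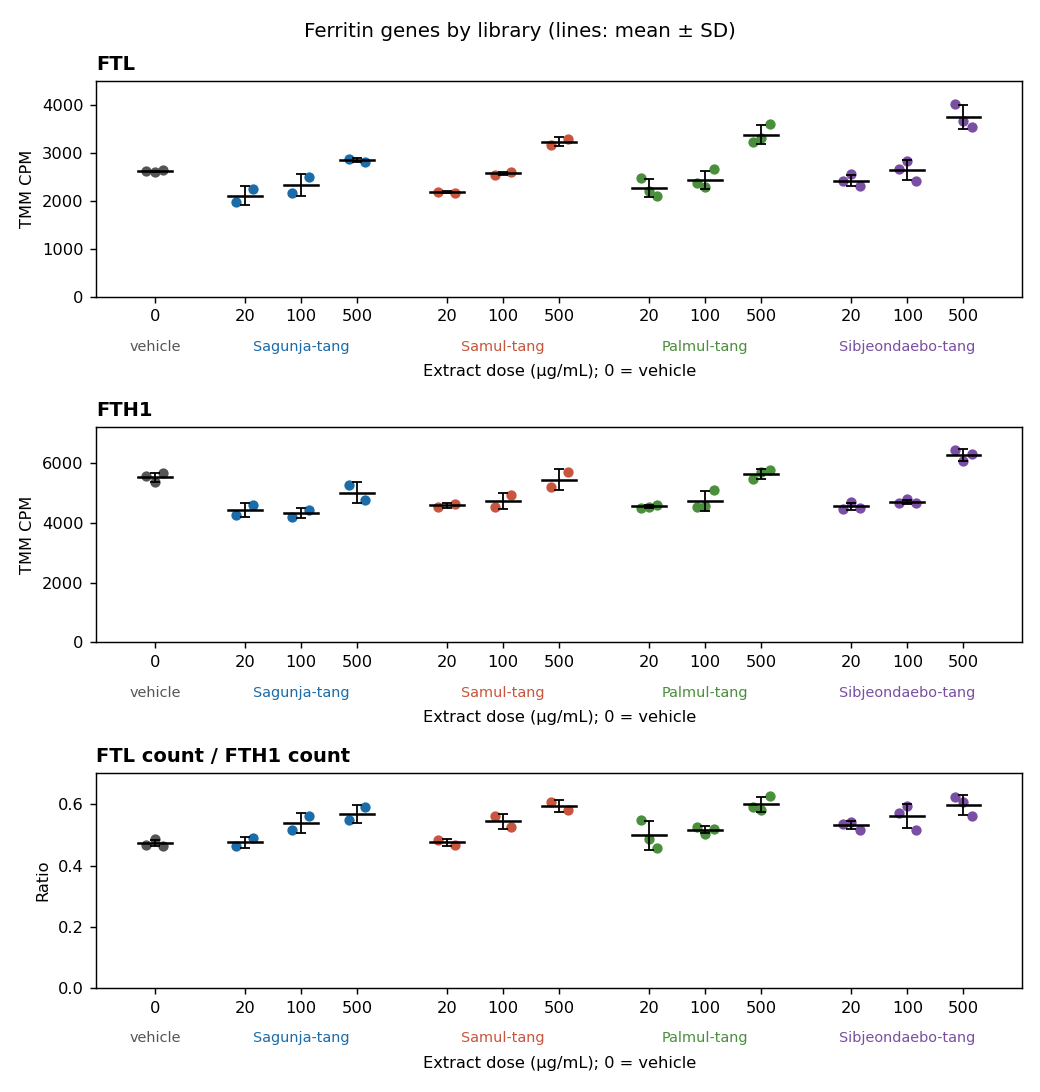
FTL and FTH1 in TMM CPM and the ratio of their counts (y axes, from 0) by dose of each extract in µg/mL, with vehicle at 0; points are libraries and lines the mean ± SD. FTL is below vehicle at 20 µg/mL and above it at 500 µg/mL, FTH1 is below vehicle at 20 and 100 µg/mL, and the ratio is 0.569 to 0.6 on average at 500 µg/mL and 0.473 in vehicle.

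TFRC encodes transferrin receptor 1, the main route of iron uptake in dividing cells (ENSG00000072274, chromosome 3, 196027183 to 196082189). In vehicle it was at 601, 580 and 521 CPM, the widest relative spread of a member in that group. All 30 extract libraries were above these, from 612 CPM upward. Low-dose means were close to each other, at 655 ± 19.8 CPM with Sagunja-tang, 656 ± 14 CPM with Samul-tang, 656 ± 25.6 CPM for Palmul-tang and 645 ± 29.6 CPM for Sibjeondaebo-tang (SD, n = 2, 2, 3 and 3). Medium-dose libraries lay between 621 and 708 CPM. High-dose levels were 703.6 and 699.7 CPM, 826 and 783 CPM, 746, 735 and 713 CPM, and 783, 799 and 811 CPM in the same order of extracts, so that only the Sagunja-tang pair lay within the medium-dose range.

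TFRC was called higher than vehicle in all 12 comparisons, by 0.18 to 0.50. The high-dose rises were 0.31 ± 0.05 with Sagunja-tang (adjusted p = 9.02e-05), 0.50 ± 0.05 with Samul-tang (1.42e-07), 0.37 ± 0.05 for Palmul-tang (3.05e-06) and 0.49 ± 0.05 with Sibjeondaebo-tang (2.05e-08). Without high-dose replicate 2 or 3 the Sagunja-tang rise was 0.30 and 0.31. Vehicle replicate 3 was the lowest TFRC library. Without it the low-dose rises, of 0.18 to 0.21 in the full data, were not called for Sagunja-tang (0.15, adjusted p = 0.0642), Samul-tang (0.15, 0.0729) and Sibjeondaebo-tang (0.13, 0.0912). The low-dose calls of Sagunja-tang and Samul-tang also ended without their own replicate 2 (0.105 and 0.1), as did that of medium-dose Sagunja-tang (0.17, adjusted p = 0.173).

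High against low dose TFRC rose by 0.29 ± 0.06 with Samul-tang (adjusted p = 0.00198), 0.16 ± 0.05 for Palmul-tang (0.0306) and 0.31 ± 0.05 with Sibjeondaebo-tang (2.62e-05), and was 0.10 ± 0.06 with Sagunja-tang (0.332). The Palmul-tang call ended without any 1 high-dose library or low-dose replicate 1 or 3 (0.14 to 0.17). The Samul-tang call ended without high-dose replicate 2 (0.25, adjusted p = 0.0634) or low-dose replicate 3 (0.26, 0.0531). For Sibjeondaebo-tang the rise was called without each library in turn.

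SLC11A2 encodes DMT1, which brings ferrous iron into the enterocyte and out of endosomes (ENSG00000110911, chromosome 12, 50979401 to 51028566). It varied least of the 7, between 55.2 and 63.8 CPM over all 33 libraries. Of the 12 comparisons with vehicle 1 was called: high-dose Samul-tang, at 63.8 and 62.4 CPM against 55.2, 56.6 and 59.0 CPM in vehicle (0.15 ± 0.04, adjusted p = 0.0104). By edgeR that call was lost without the filter on low counts (0.154, adjusted p = 0.0546) and in a fit to both groups alone (0.145, 0.0643). It was also lost without Samul-tang replicate 2 (0.13). Removing length and GC trends gave called rises in 6 further comparisons, of 0.11 to 0.19, among them high-dose Sagunja-tang (0.19) and Sibjeondaebo-tang (0.13). High against low dose it lay between -0.05 and 0.05 and was not called with any extract.

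SLC40A1 encodes ferroportin, the iron exporter (ENSG00000138449, chromosome 2, 189560579 to 189583758). In vehicle it was at 103, 107 and 115 CPM. At the low dose it was at 125.8 and 129.9 CPM with Sagunja-tang, 127 and 129 CPM with Samul-tang, 121, 126 and 132 CPM with Palmul-tang and 125, 125 and 131 CPM with Sibjeondaebo-tang, all above vehicle. At the medium dose it was between 112 and 120.4 CPM. High-dose levels were 103 and 105 CPM, 105 and 111 CPM, 94.6, 96.2 and 97.8 CPM, and 101, 103 and 108 CPM in the same order. The Palmul-tang libraries were below vehicle and the other high-dose groups overlapped it. The gene therefore stood above vehicle at the low dose and declined as the dose increased.

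At high against low dose SLC40A1 fell by 0.29 ± 0.05 with Sagunja-tang (adjusted p = 0.000418), 0.24 ± 0.05 with Samul-tang (0.00118), 0.39 ± 0.04 for Palmul-tang (3.46e-08) and 0.28 ± 0.04 with Sibjeondaebo-tang (2.71e-06). Without high-dose replicate 2 or 3 the Sagunja-tang change was -0.28 and -0.32, and in the fit to its own 4 libraries it was -0.29 with an adjusted p of 0.556. Against vehicle the low dose raised it by 0.24 ± 0.04, 0.24 ± 0.04, 0.22 ± 0.04 and 0.23 ± 0.04, with adjusted p between 0.000245 and 0.000599, and each of these was called without each library in turn. The medium-dose rises with Samul-tang (0.14 ± 0.04, adjusted p = 0.0243) and Sibjeondaebo-tang (0.13 ± 0.04, 0.0185) were lost without vehicle replicate 1 (0.10 and 0.09) or replicate 2 (0.13 and 0.12), without either Samul-tang library (0.14 to 0.15) and without Sibjeondaebo-tang replicate 2 or 3 (0.12 and 0.11). The 1 fall called at the high dose was with Palmul-tang (-0.17 ± 0.04, adjusted p = 0.00128). With the replicate block high-dose Sagunja-tang was also called lower (-0.08, adjusted p = 0.0487), and medium-dose Sagunja-tang (0.10, 0.024) and Palmul-tang (0.09, 0.0199) higher. Medium-dose Sagunja-tang was called higher by DESeq2 (0.12, adjusted p = 0.0287) and with length and GC trends removed (0.14, 0.0237) as well. Both medium-dose rises were also called without vehicle replicate 3 (0.17 and 0.13, adjusted p = 0.0177 and 0.0344).

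**Figure D4:**
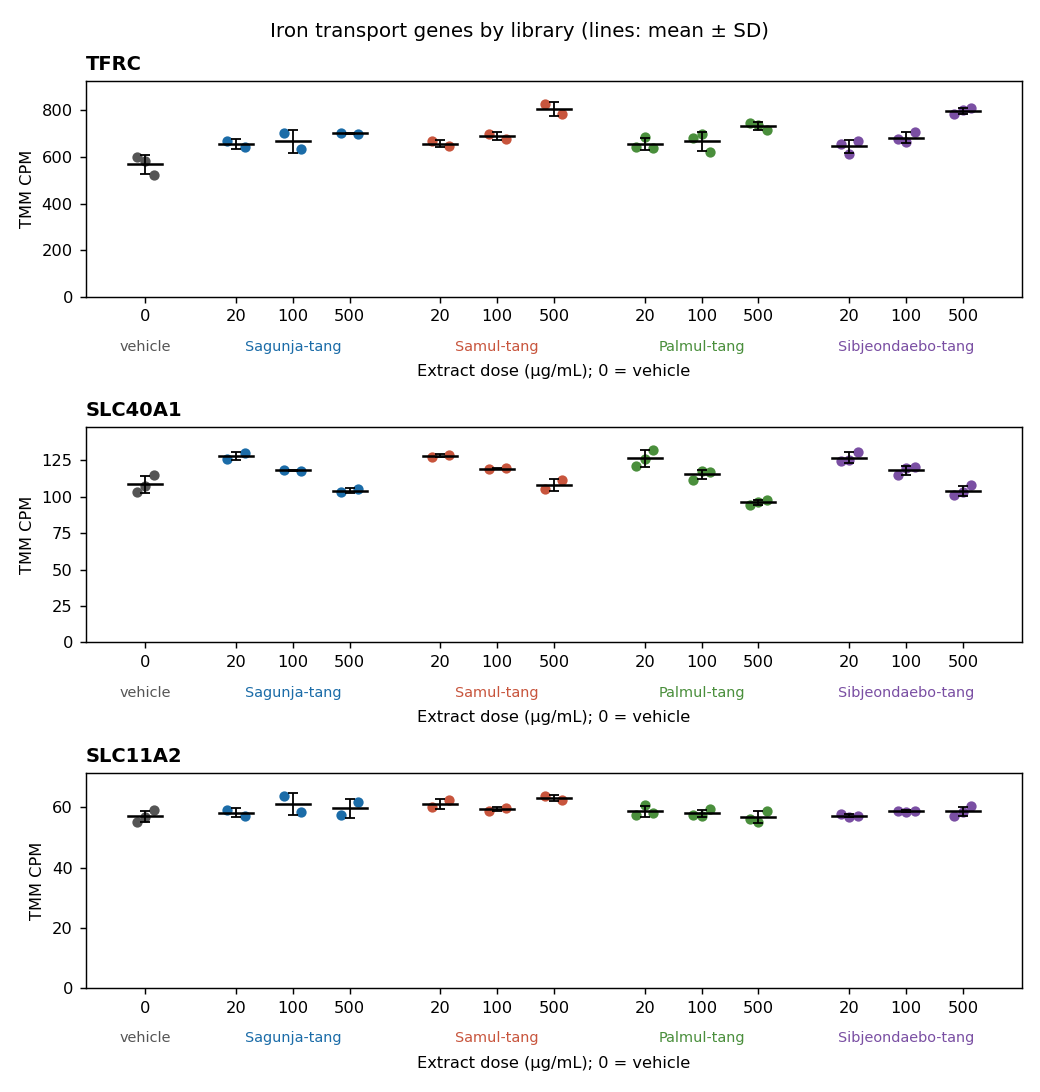
TFRC, SLC40A1 and SLC11A2 in TMM CPM (y axes, from 0) by dose of each extract in µg/mL, with vehicle at 0; points are libraries and lines the mean ± SD. TFRC is above vehicle in every extract group, SLC40A1 is highest at 20 µg/mL and lower at 500 µg/mL, and SLC11A2 stays between 55.2 and 63.8 CPM.

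Between extracts at the high dose, HMOX1 was the only member called. It was 0.78 ± 0.07 higher with Samul-tang than with Sagunja-tang (26.2 against 15.2 CPM, adjusted p = 6.11e-08), where 5.47% of genes were called, and 0.68 without Sagunja-tang replicate 2 and 0.90 without its replicate 3. A fit to those 2 groups alone called 2 genes in all and gave HMOX1 0.78 with an adjusted p of 0.146. Its dose effect, high against low, was also larger with Samul-tang than with Sagunja-tang, by 0.58 ± 0.11 (adjusted p = 0.0114, 0.138% of genes called). That call ended without Sagunja-tang high-dose replicate 2 (0.48, adjusted p = 0.135), its low-dose replicate 2 (0.57, 0.104) or 3 (0.58, 0.0747), Samul-tang high-dose replicate 3 (0.56, 0.0786) or its low-dose replicate 3 (0.50, 0.182), and in a fit to the 4 groups alone (0.58, 0.767).

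TFRC just missed the threshold in Samul-tang against Sagunja-tang (0.20 ± 0.06, adjusted p = 0.0506), and DESeq2, the replicate block and the fit without a filter called it. FTL was called there without the filter (adjusted p = 0.00669), and removing length and GC trends called FTL (0.36) and FTH1 (0.22) but not TFRC.

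No member passed the threshold between Sibjeondaebo-tang and Palmul-tang at the high dose by edgeR on the filtered table, where 3.87% of genes were called. An unadjusted p below 0.05 was found for 4 members and for 2864 of the 17432 tested genes, and DESeq2 called 2 members. FTH1 was 0.15 ± 0.05 higher with Sibjeondaebo-tang (adjusted p = 0.0697, 0.0191 by DESeq2), and SLC40A1 was 0.12 ± 0.04 higher (0.106, 0.0486 by DESeq2). FTH1 was also called by edgeR without the filter (adjusted p = 0.00566), with the replicate block (0.0421), with mitochondrially encoded genes left out (0.0374) and in a fit to both groups alone (0.0493). SLC40A1 was called with the block (0.0102), FTL without the filter (0.15, adjusted p = 0.0138) and TFRC in the fit to both groups alone (0.12, 0.0488). HMOX1 differed by -0.04 ± 0.06. Between Palmul-tang and Samul-tang no member passed the threshold either by edgeR (0.138% of genes called). There 4 members and 1748 of all tested genes had an unadjusted p below 0.05. DESeq2 called 2 members: SLC40A1 (-0.17 ± 0.04, adjusted p = 0.137 by edgeR, 0.0148 by DESeq2) and SLC11A2 (-0.15 ± 0.04, 0.181 by edgeR, 0.0348 by DESeq2). With the replicate block edgeR called SLC40A1 here as well (-0.15 ± 0.03, adjusted p = 0.0473). These extracts belong to different code sets, so extract and code set cannot be told apart in their comparison. HMOX1 was 0.20 ± 0.06 lower in Palmul-tang on this scale, with no overlap between the groups and an adjusted p of 0.226. By edgeR no member was called between the dose effects of Sibjeondaebo-tang and Palmul-tang (1.45% of genes called) or of Palmul-tang and Samul-tang (0% of genes called). At an unadjusted p below 0.05 were 2 members and 1881 of all tested genes in the first, and 1 member and 691 genes in the second.

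Across the 13 group means of log2 CPM, HMOX1 and FTL had a Pearson correlation of 0.911, FTL and FTH1 of 0.91, HMOX1 and TFRC of 0.87, and FTL and SLC40A1 of -0.87. SLC11A2 followed none of the others closely, with correlations between -0.14 and 0.442. These points share libraries and scaling, and the 12 extract groups share the rise in dose, so the values are a description. Of 10437 genes compared, the pattern of HMOX1 was most like those of SLC38A4 (0.995), FECH (0.985) and SQSTM1 (0.983), that of FTL like SLC38A5 (0.984), ELOVL1 (0.983) and TUBA4A (0.981), and that of FTH1 like HDDC2 (0.973), USP14 (0.973) and RAD23B (0.971). TFRC was most like STT3B (0.987), LBR (0.983) and PRMT3 (0.976), and SLC40A1 like PROM1 (0.969), RFX5 (0.962) and DEPTOR (0.96). For BLVRB they were PRPF19 (0.956), ATIC (0.954) and F12 (0.953), and for SLC11A2 the less close MIGA1 (0.892), SMG1P2 (0.869) and FAM217B (0.861).

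The lists of related genes are read against the shares of all genes called, which at high against low dose were 3.33, 4.10, 7.66 and 15.5% higher and 3.86, 3.43, 6.75 and 14.3% lower with Sagunja-tang, Samul-tang, then Palmul-tang and Sibjeondaebo-tang. At the high dose against vehicle they were 18.7, 15.0, 17.3 and 20.5% higher and 18.0, 12.5, 14.8 and 19.1% lower. Of 8 heme synthesis genes, all tested, 2 rose and 0 fell at high against low dose with each of Sagunja-tang, Samul-tang and Palmul-tang, and 5 rose and 2 fell with Sibjeondaebo-tang, with median log2 changes of 0.12, 0.11, 0.13 and 0.20. Against vehicle 7, 6, 5 and 6 of the 8 rose at the high dose and 0, 0, 0 and 1 fell. At the low dose against vehicle 4 of the 8 rose and 0 fell with each extract, where 11.1, 8.89, 10.6 and 11.1% of all genes rose. These 4 comparisons share the vehicle libraries. At high against low dose FECH, the ferrochelatase that puts iron into the ring, rose with all 4 extracts, in that order by 0.26 ± 0.06, 0.55 ± 0.06, 0.49 ± 0.05 and 0.53 ± 0.05. With Sagunja-tang that call ended without high-dose replicate 2 (adjusted p = 0.0695) or low-dose replicate 2 (0.0547) or 3 (0.108). ALAS1, the rate-limiting first enzyme, rose by 0.26 ± 0.04 with Palmul-tang and 0.34 ± 0.04 for Sibjeondaebo-tang, and by 0.21 ± 0.05 with Samul-tang, where it was lost without low-dose replicate 2 (0.15, 0.166) or high-dose replicate 3 (0.19, 0.0546). PPOX, another mitochondrial enzyme of heme synthesis, fell with Sibjeondaebo-tang (-0.30 ± 0.07).

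Among 9 heme breakdown and heme transport genes outside the members, all tested, 4, 3, 4 and 5 rose at high against low dose in the order of Sagunja-tang, Samul-tang, then Palmul-tang and Sibjeondaebo-tang, and 0, 1, 0 and 0 fell. Against vehicle 3, 5, 5 and 5 rose at the high dose and 0 fell. At high against low dose ABCG2, an exporter whose substrates include porphyrins, rose by 0.39 ± 0.05, 0.63 ± 0.05, 0.43 ± 0.04 and 0.58 ± 0.04. ABCB6, a porphyrin transporter, rose by 0.25 ± 0.07, 0.61 ± 0.07, 0.50 ± 0.06 and 0.43 ± 0.06, and with Sagunja-tang lost its call without high-dose replicate 2 (0.10, adjusted p = 0.72) or low-dose replicate 2 (0.133) or 3 (0.21). BLVRA, the other biliverdin reductase, was near 1 CPM (1.01 with high-dose and 1.66 with low-dose Samul-tang), and its called fall there (-0.70 ± 0.20, adjusted p = 0.0301) was lost without high-dose or low-dose replicate 2 and by DESeq2 (0.0731).

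**Figure D5:**
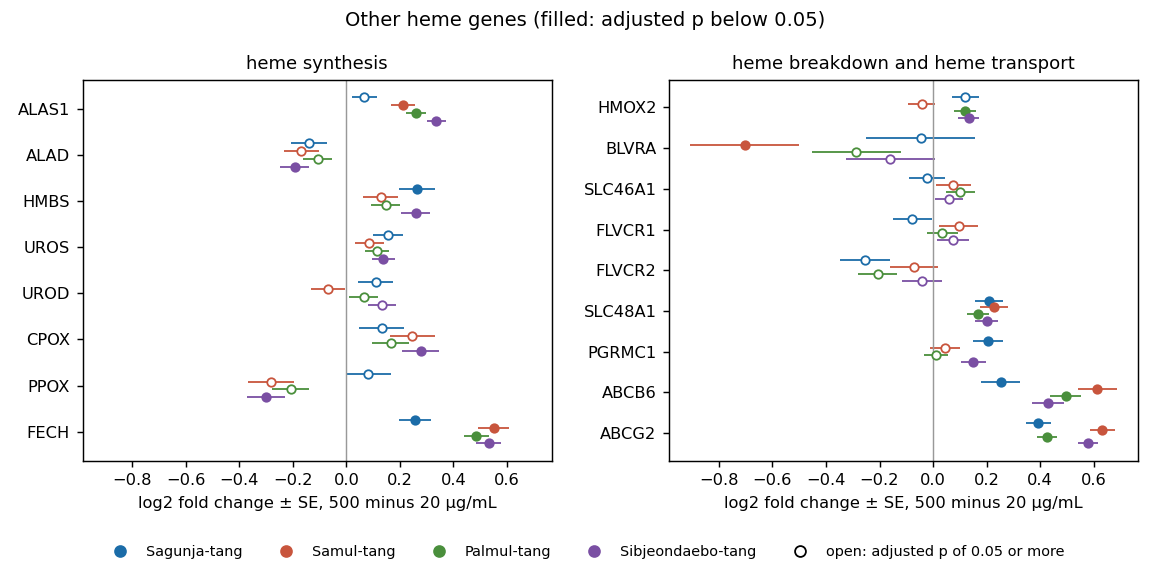
Log2 fold changes at 500 against 20 µg/mL (x axes, ± SE) of 8 heme synthesis genes and 9 further heme breakdown and transport genes for each extract; filled points have an adjusted p below 0.05. FECH, ABCB6 and ABCG2 lie right of 0 with all 4 extracts, at 0.25 to 0.63, and BLVRA has the widest errors.

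Of 20 further genes of iron uptake, reduction and export, 15 were tested. At high against low dose 0 rose and 1 fell with Sagunja-tang, 2 and 2 with Samul-tang, 1 and 4 for Palmul-tang, and 2 and 5 with Sibjeondaebo-tang. The 2 of 15 that rose with Sibjeondaebo-tang were a share near that of all genes. At the high dose against vehicle 3, 3, 2 and 2 rose and 3, 2, 3 and 4 fell. STEAP4, a metalloreductase, fell at high against low dose with all 4 extracts, by 0.58 ± 0.08, 0.70 ± 0.07, 0.65 ± 0.06 and 0.55 ± 0.06. LCN2, which binds iron-carrying siderophores, fell by 0.52 ± 0.09 with Samul-tang, 0.31 ± 0.08 for Palmul-tang and 0.36 ± 0.08 with Sibjeondaebo-tang. STEAP3, the endosomal ferrireductase that works with the transferrin receptor, rose with Samul-tang (0.32 ± 0.06) and Sibjeondaebo-tang (0.22 ± 0.05), and for Palmul-tang (0.19 ± 0.05), where it was lost without low-dose replicate 2 (adjusted p = 0.142) or high-dose replicate 3 (0.0664).

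Of 8 genes of iron sensing and ferritin turnover, 0 were called at high against low dose with Sagunja-tang and with Samul-tang by edgeR or by DESeq2. An unadjusted p below 0.05 was found for 2 and 1 of the 8, and for 4139 and 3493 of the 17432 tested genes. In the same comparison 2 of the 8 fell for Palmul-tang and 4 rose with Sibjeondaebo-tang. The falls with Palmul-tang were not called without the filter on low counts or in a fit to both groups alone. At the high dose against vehicle 1, 0, 1 and 3 rose and 2, 2, 2 and 1 fell. NCOA4, the receptor that carries ferritin to lysosomes, fell with high-dose Sibjeondaebo-tang against vehicle (162 against 178 CPM, -0.14 ± 0.03, adjusted p = 0.000947). The 3 that rose there were SKP1, PCBP2 and CUL1. By edgeR NCOA4 was not called at high against low dose with Sibjeondaebo-tang, and was 1 of the 2 falls with Palmul-tang (-0.09 ± 0.03). At the low dose against vehicle 0 of the 8 rose and 2 fell with each extract, where 10.7, 8.71, 9.74 and 10.9% of all genes fell. Of 22 iron-sulfur cluster assembly genes 1, 1, 4 and 6 rose at high against low dose and 0 fell, a share near that of all genes with Sagunja-tang and with Samul-tang. At the high dose against vehicle 11, 9, 12 and 15 rose and 0, 1, 0 and 0 fell; in fits to the groups compared alone 3 were called with Sagunja-tang and 5 with Samul-tang. HSPA9, a mitochondrial chaperone of that pathway, rose by 0.23 ± 0.04 at high against low dose with Sibjeondaebo-tang.

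The last list held 6 genes: transcription factors acting at heme oxygenase and ferritin genes, their partners and the NRF2 inhibitor KEAP1. Of these, 4 rose at the high dose against vehicle with each extract and 1, 2, 1 and 1 fell. With Sibjeondaebo-tang the 4 included KEAP1 and the repressor BACH1, so the counts do not give a direction of NRF2 activity. At high against low dose 2, 2, 2 and 3 rose and 0 fell. MAFG, a small MAF partner of NRF2 and BACH1, rose by 0.31 ± 0.06, 0.32 ± 0.06, 0.28 ± 0.05 and 0.26 ± 0.05, and with Sagunja-tang was not called without high-dose replicate 2 (0.21, adjusted p = 0.104). KEAP1, the inhibitor of NRF2, rose by 0.26 ± 0.07 with Samul-tang, 0.21 ± 0.06 for Palmul-tang and 0.35 ± 0.06 with Sibjeondaebo-tang. The Samul-tang call ended without any 1 of its 4 libraries (0.21 to 0.29), and that of Palmul-tang without high-dose replicate 1 or low-dose replicate 1 or 3 (0.18 to 0.20). Against vehicle, high-dose Sibjeondaebo-tang raised BACH1 (43.8 against 37.4 CPM, 0.22 ± 0.04) and lowered NFE2L2, the gene of NRF2 (125 against 146 CPM, -0.22 ± 0.05, adjusted p = 0.000291). By edgeR neither BACH1 nor NFE2L2 was called at high against low dose with any extract. At the low dose against vehicle 2 of the 6 genes rose and 1 fell with each extract. There 11.1, 8.89, 10.6 and 11.1% of all genes rose and 10.7, 8.71, 9.74 and 10.9% fell.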

How the data were processed

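RNA-seq libraries of HT29 cells, 33 in 13 groups by extract and dose, were analysed. Per the submitters' processing notes the tools were FastQC 0.11.9, Trim Galore 0.6.5, STAR 2.7.3a and RSEM 1.3.3 with hg38, and the deposited values are expected counts per gene made by the authors; the annotation release is not given in the sources used here. Of the values 9.45% were not whole, and they were rounded. The table has 273 columns, of which 240 were not used. The series text gives another percentage of DMSO than the sample labels.

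Genes passing filterByExpr (minimum count 10) entered 22 comparisons in edgeR 4.0.16 (R 4.3.3), with TMM scaling, a coefficient for each group and 1 fit to all libraries. Its quasi-likelihood test was used, and p-values were adjusted by Benjamini-Hochberg over 17432 genes at 0.05. The SE is the absolute log2 fold change divided by the square root of F. Alternatives were RLE scaling, DESeq2 1.42.0, no filter, only the groups compared, a replicate block, mitochondrially encoded genes left out, length and GC trends removed, and each library left out. Where a group kept 1 library, its spread was taken from the rest. The test was checked on simulated counts.

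Replicate numbers are shared between groups, but the labels do not say they pair samples. Of 47 same-number pairs 20 had deviations correlated above 0.1 (range -0.281 to 0.494), and in 0 of 9 comparisons with 3 pairs did all exceed it, so the numbers were not taken as pairs.

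The members and the 6 lists of related genes (73 symbols, 68 tested) were chosen with earlier results of these data known. All members are named; list genes are named from the called ones with the smallest p, up to 4 per list and comparison, and the 3 most alike genes of each member by correlation among genes averaging 2 or more in log2 CPM. Gene positions, exon lengths and hairpins came from GENCODE 29.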

Additional observations from a re-analysis of the deposited data

Results flagged for a closer look

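The dose effect of HMOX1, high against low, differed between Samul-tang and Sagunja-tang by 0.585 on the log2 scale (SE 0.106, adjusted p = 0.0114), with a rise of 1.10 ± 0.07 with Samul-tang and 0.52 ± 0.08 with Sagunja-tang. Such differences were tested for all 7 members in 3 pairs of extracts, and this one is singled out because it was the only one called. The 4 groups hold 2 libraries each, and the call ended without any 1 of 5 of these 8 libraries, with values of 0.477 to 0.584.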

How the results depend on the processing

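No log2 change of a called member changed sign under any alternative. Of 154 results for single members, RLE scaling kept all 154 on their side of the threshold. DESeq2, which gave an adjusted p for fewer of them, ended 0 calls and added 7. The replicate block ended 0 and added 9, and leaving out mitochondrially encoded genes ended 0 and added 2. Dropping the filter ended 1 and added 7, removing length and GC trends ended 4 and added 10, and fitting only the groups compared ended 11 and added 2. Leaving out 1 library at a time ended 51 calls and added 5, while 861 results stayed on their side of the threshold.

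Counts of called genes moved by over 1.5 times as follows. With only the groups compared, all genes called were 2182 for Sagunja-tang high against vehicle, 1597 for Sagunja-tang medium, 1779 for Palmul-tang medium, 0 for Sagunja-tang high against low, 2 for Samul-tang against Sagunja-tang at the high dose, 0 for the difference of their dose effects and 1 for that of Palmul-tang and Samul-tang; members called were 3 for Samul-tang high against vehicle, 1 for Sagunja-tang medium, 0 for Sagunja-tang high against low, 0 for Samul-tang against Sagunja-tang, 0 for their dose effects and 2 for Sibjeondaebo-tang against Palmul-tang. Without the filter, all genes called were 1746 for Samul-tang against Sagunja-tang, 272 for Palmul-tang against Samul-tang, and 380, 473 and 87 for the 3 differences of dose effects (Samul-tang and Sagunja-tang, Sibjeondaebo-tang and Palmul-tang, Palmul-tang and Samul-tang); members were 3 for Samul-tang against Sagunja-tang and 2 for Sibjeondaebo-tang against Palmul-tang. With the replicate block, all genes called were 1473 for Samul-tang against Sagunja-tang, and 40 and 3 for the dose effects of Samul-tang and Sagunja-tang and of Palmul-tang and Samul-tang; members were 2 for Samul-tang against Sagunja-tang, 2 for Sibjeondaebo-tang against Palmul-tang and 1 for Palmul-tang against Samul-tang. With DESeq2, all genes called were 123 for Palmul-tang against Samul-tang, and 75 and 4 for those dose effects; members were 2 in each of the 3 comparisons between extracts. With length and GC trends removed, 588 genes and 3 members were called for Samul-tang against Sagunja-tang and 4 members for Sagunja-tang medium. With mitochondrially encoded genes left out, 1 member was called for Sibjeondaebo-tang against Palmul-tang. The cause was not tested.

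Leaving out 1 library, all genes called ranged from 2884 to 6923 for Sagunja-tang high against vehicle, 2285 to 4852 for Samul-tang high, 429 to 3095, 633 to 3731, 1591 to 3956 and 2886 to 4533 for the medium doses of Sagunja-tang, Samul-tang, then Palmul-tang and Sibjeondaebo-tang, and 1064 to 3986, 776 to 3290, 1663 to 3680 and 2177 to 3882 for their low doses. They ranged from 140 to 4222 for Sagunja-tang and 547 to 682 for Samul-tang high against low, from 64 to 4092, 435 to 547 and 1 to 11 for Samul-tang against Sagunja-tang, Sibjeondaebo-tang against Palmul-tang and Palmul-tang against Samul-tang, and from 7 to 1986 and 0 to 1 for the dose effects of Samul-tang and Sagunja-tang and of Palmul-tang and Samul-tang. Members called ranged from 1 to 3 for Sagunja-tang medium, 3 to 5 for Samul-tang medium, 2 to 4 for the low doses of Sagunja-tang, Samul-tang and Sibjeondaebo-tang, 3 to 4 for Samul-tang high against low and 0 to 1 for the dose effects of Samul-tang and Sagunja-tang. Groups of 2 or 3 libraries limit the precision of small changes, and depth was not varied; the lowest member had a median of 12.9 CPM.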
